A study of Mus musculus with 72 samples.

Results

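Clock output factors are transcription factors that sit downstream of the core circadian loop and pass its rhythm on to other genes. The members described here were Dbp, Tef, Hlf, Nfil3, Ciart, Bhlhe40 and Bhlhe41, that is 7 of the 24237 genes counted in 72 RNA-seq libraries of the adult mouse heart. They were chosen by function and not selected on a threshold, but their levels in these 72 libraries, and the differences of high TCDD libraries from naive ones, were known when they were picked, so an adjusted p below gives the place of a gene in a fit over all genes and is not independent evidence. All mice were C57BL/6J. Naive Ahr+/+ mice were born to dams given corn oil, the low and high TCDD groups were Ahr+/+ mice whose dams received 0.1 or 1 μg/kg TCDD by gavage on 3 days of gestation, and Ahr-/- mice lacked the aryl hydrocarbon receptor in all cells from conception and came from Ahr-/- parents. Per the methods, Ahr-/- dams were left untreated in gestation, so Ahr-/- and naive mice also differed in gavage and corn oil. TCDD is a dioxin and the standard activating ligand of that receptor. Each group gave 18 libraries, 3 per sex from each compartment (right atrium, left atrium, ventricles), so 6 libraries per group and compartment. The labels give an age of 9 months and the methods 10 months, the 2 sources differ on the days of gavage, the treatment field of the labels names TCDD for all 72 libraries, so that groups were taken from the titles, and the hour at which hearts were taken is not given in the sources used here.

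In the core loop, Clock (or Npas2) and Arntl, also called Bmal1, bind E-boxes in DNA and switch on Per, Cry and Nr1d genes, whose products then hold them back. Dbp, Tef and Hlf are related basic leucine zipper activators that bind D-box elements, and Nfil3, also called E4bp4, represses through the same elements. Ciart, also called Chrono, and Bhlhe40 and Bhlhe41, also called Dec1 and Dec2, repress transcription driven by Clock and Arntl. Through such factors the clock of the heart reaches genes of metabolism and of electrical activity, and the level of each factor depends on the time of day.

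Promoter windows were read because most members moved together across libraries. They are shown for the members that held the E-box CACGTG, the site of Clock and Arntl, within 250 bases before the start of transcription. Capitals mark CACGTG and the core of the xenobiotic response element bound by the aryl hydrocarbon receptor, GCGTG, or its complement CACGC. All sequences are from RefSeq on GRCm38.p6 and are written 5′ to 3′ along the strand of the gene.
Ciart, chr3:95882229-95882478, minus strand: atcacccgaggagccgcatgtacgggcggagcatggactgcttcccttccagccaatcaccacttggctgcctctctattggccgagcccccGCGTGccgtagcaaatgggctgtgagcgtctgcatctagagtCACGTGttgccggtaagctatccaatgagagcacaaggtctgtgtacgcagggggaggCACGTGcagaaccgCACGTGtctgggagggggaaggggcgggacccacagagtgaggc
Bhlhe41, chr6:145865421-145865670, minus strand: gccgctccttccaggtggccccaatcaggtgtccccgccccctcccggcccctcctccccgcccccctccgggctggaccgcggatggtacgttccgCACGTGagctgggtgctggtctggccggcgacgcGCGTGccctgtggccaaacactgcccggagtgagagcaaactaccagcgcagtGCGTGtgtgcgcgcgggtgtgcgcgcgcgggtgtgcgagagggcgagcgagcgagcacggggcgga
Tef, second start, chr15:81811164-81811413, plus strand: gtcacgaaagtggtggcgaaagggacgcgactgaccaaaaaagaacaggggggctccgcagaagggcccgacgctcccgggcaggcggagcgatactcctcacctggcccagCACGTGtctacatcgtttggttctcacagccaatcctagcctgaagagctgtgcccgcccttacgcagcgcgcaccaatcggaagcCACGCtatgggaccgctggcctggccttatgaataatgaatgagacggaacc
The window of Ciart held 3 E-boxes, which began 116, 58 and 44 bases before the start. That of Bhlhe41 held 1, at 153 bases, and each of the 2 Tef starts held 1, at 127 and 138 bases. Promoter entries existed for 6 of the 7 members, all but Bhlhe40. Those of Dbp, Hlf and Nfil3 held no CACGTG in this window of 300 bases, 250 before and 50 after the start. On both strands CACGTG occurred in 7.15% of the 32851 promoters of the table, and 2 of the 10 core clock genes with an entry, Cry1 and Per1, held it. GCGTG was common, at 32.4% of promoters, and the longer TNGCGTG, which contains it, occurred in 5.07% and in the windows of Hlf and the second Tef start. The D-box TTATGTAA (0.938% of promoters), its CG form TTACGTAA (0.119%), CACGTT (4.68%) and the RORE (0.384%) matched no member, and TGACGTCA (1.79%), the cyclic AMP response element, matched Hlf. These are matches of letters and say nothing of binding.

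Levels were expressed as counts-per-million (CPM), the count of a gene relative to the total of its library after TMM scaling, which evens out differences in composition between libraries. The libraries held 11873417 to 28789382 counts each (median 19231739), and the lowest count of a member in any library was 28. Ahr itself was at 10.4 to 34.0 CPM in naive and 2.35 to 8.67 CPM in Ahr-/- libraries. Of the libraries numbered 49 to 72, 8 of 24 carried Xist or Y-linked transcripts of the sex opposite to their label, against 0 of 48 among numbers 1 to 48. Myl4, an atrial myosin light chain, was below 100 CPM in 8 of 48 libraries labelled as atrium and at 100 CPM or more in 8 of 24 labelled as ventricle. In all, 20 of 72 libraries went against a label, and results are given with and without them. Among numbers 49 to 72 these were 12 of 24, at the same labels in each group (right atrium female, left atrium male and ventricles male). Myl4 does not separate right from left atrium, so wrong labels of that kind would go unseen. They may remain in the results without these libraries. The labels call the samples cardiomyocytes, but they were dissected tissue with transcripts of other cell types, so fewer cells of a type and less RNA per cell cannot be told apart. Summed markers of lung reached 1833 CPM in 1 low TCDD library, and those of T cells 334.7 CPM in 1 high TCDD library, against at most 4.22 and 28.9 CPM in naive libraries, and the lung markers were at 0 in the median library of every group. Adipocyte markers spanned 0.158 to 770.2 CPM in naive and 0.192 to 914.1 CPM in high TCDD libraries. The part of these other tissues in the results was not tested.

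Per kilobase of coding sequence, the naive heart held most of Tef (median 198.2 CPM per kb over 18 libraries) and Dbp (192.3), then Hlf (109.4), Bhlhe41 (56.3), Bhlhe40 (47.5), Ciart (9.83) and Nfil3 (6.45). The ranges of Tef (82.4 to 286.0) and Dbp (61.7 to 327.2) overlapped almost wholly, as did those of Bhlhe41 and Bhlhe40, whereas every naive library of Bhlhe40 (lowest 26.9) lay above the highest of Ciart (19.4). Between compartments of naive mice no member passed an adjusted p of 0.05 in edgeR's quasi-likelihood test or in DESeq2. In edgeR 1 of 15060 genes (0.00664%) passed for right atrium against ventricles and 0% for the other 2 contrasts. In DESeq2 2.42% of genes passed for right atrium against ventricles, 0.196% for left atrium against ventricles and 0.0301% between the atria. At an unadjusted p under 0.05, 2 of 21 member contrasts passed, both of Hlf, which was 0.55 ± 0.25 (SE) higher on the log2 scale in the right atrium than in the ventricles and 0.56 ± 0.25 higher in the left atrium. Over all genes 10.6% of such contrasts passed. Naive libraries 4, 35, 51 and 53 went against their labelled compartment, so these contrasts cannot show that members were level between compartments. Without the libraries that went against a label, 1 member passed for right atrium against ventricles, beside 17.8% of 15257 genes. For left atrium against ventricles 0 members passed, beside 11.3%.

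Across all compartments, whose libraries share hearts and are not independent, the high TCDD libraries stood low for 5 members. Dbp, the founding member of its family, had a median of 188 CPM in naive (60.2 to 319), 176 in Ahr-/- (96.8 to 264), 217 in low TCDD (129 to 388) and 74.8 in high TCDD libraries (47.2 to 200). Tef ran from 82.9 to 288 CPM in naive (median 199) and from 64.5 to 145 in high TCDD (median 88.4). Hlf ran from 60.3 to 188 CPM in naive (median 98.4) and from 23.5 to 65.9 in high TCDD (median 46.0). The high TCDD median lay below the lowest naive library for Hlf, and close above the lowest naive library for Dbp and Tef. Ciart was at 3.25 to 22.1 CPM in naive (median 11.2) and 1.13 to 6.14 in high TCDD (median 2.66). Bhlhe41 was at 37.3 to 91.7 CPM in naive (median 71.9) and 26.8 to 59.2 in high TCDD (median 39.2). The ranges of both repressors overlapped between the groups. Bhlhe40 (median 59.3 CPM in naive, 52.7 in high TCDD) and Nfil3 (8.94 and 11.6) did not share the low levels.

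**Figure D1:**
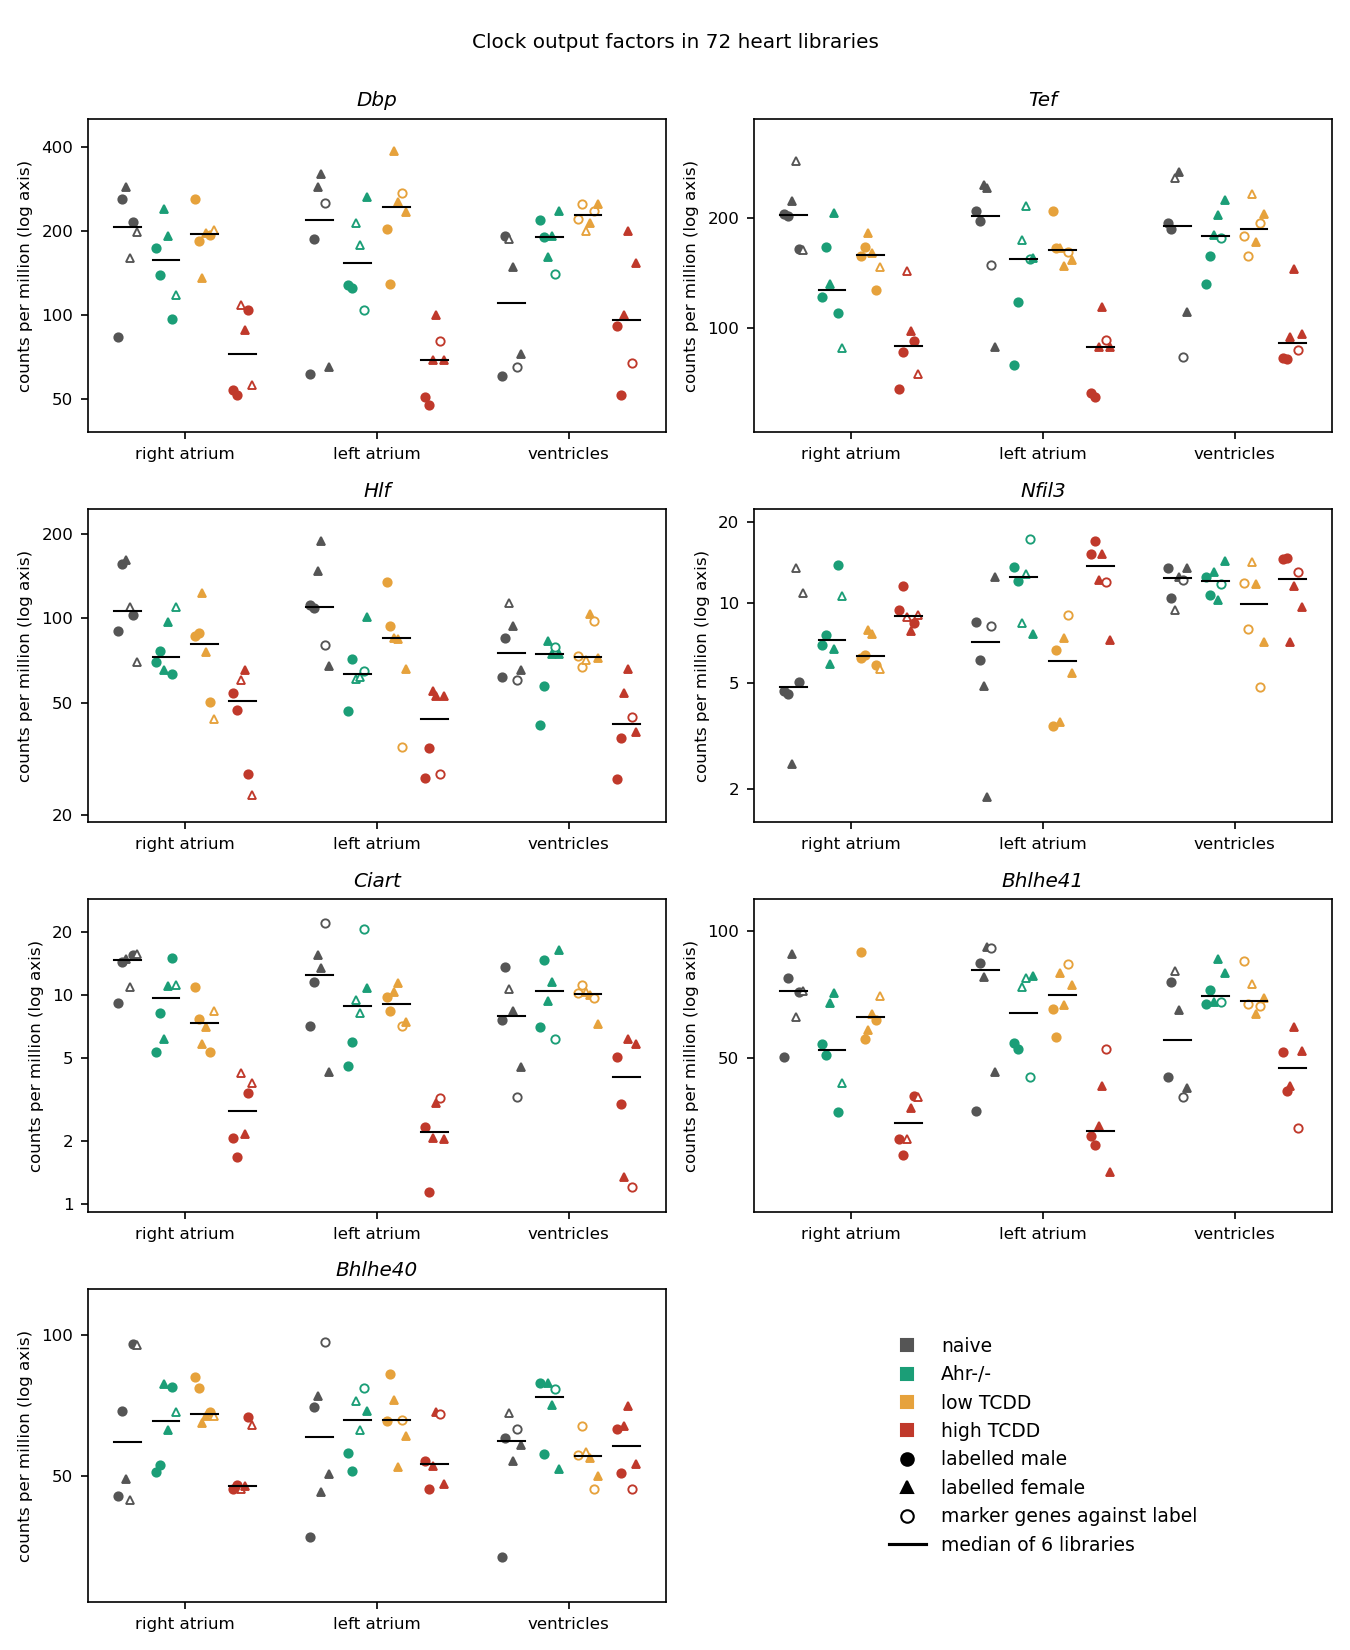
CPM (log axis) of each member in all 72 libraries, by compartment and group. Circles are labelled male and triangles labelled female, open symbols are libraries whose marker genes went against a label, and bars are medians of 6 libraries. High TCDD libraries (red) of Ciart lay at 1.13 to 6.14 CPM and those of Hlf at 23.5 to 65.9 CPM.

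The naive libraries did not form 1 level. Dbp was under 100 CPM in 6 of 18 naive libraries (numbers 1, 17, 33, 52, 53 and 54, at 60.2 to 83.3 CPM) and at 149 CPM or more in the other 12. It was under 100 CPM in 13 of 18 high TCDD libraries, 1 of 18 Ahr-/- libraries and 0 of 18 low TCDD libraries. The compartments share hearts that the labels do not match up, so these are counts of libraries and the 18 of a group are not 18 mice. In the 6 naive libraries low in Dbp, Arntl, whose rhythm runs opposite to that of Dbp, was at 2.58 to 4.22 on the log2 CPM scale, and in the other 12 at −0.22 to 1.80. Arntl had a median of 2.73 CPM in naive, 6.44 in Ahr-/-, 3.73 in low TCDD and 16.7 CPM in high TCDD libraries. Group and hour of collection cannot be told apart from these labels, and the part of the hour was not tested.

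High TCDD, low TCDD and Ahr-/- libraries were each compared with naive libraries of the same compartment. These are differences between groups whose cause was not tested, and rose or fell below means higher or lower than in naive libraries. In the right atrium Ciart, Tef and Bhlhe41 were lower in high TCDD than in naive libraries. Ciart had a lowest, median and highest value of 9.11, 14.6 and 15.7 CPM in 6 naive and 1.67, 2.78 and 4.20 CPM in 6 high TCDD libraries, and no high TCDD library reached a naive one. It was 4.70 times lower (log2 −2.23 ± 0.25, SE, adjusted p = 0.00352, edgeR), the second gene of 15023 by p-value. Tef went from 163, 203 and 288 CPM to 68.1, 89.0 and 143 CPM, again without overlap (log2 −1.15 ± 0.18, adjusted p = 0.0327). Bhlhe41 went from 50.2, 71.9 and 88.3 CPM to 29.4, 35.0 and 40.5 CPM, without overlap (log2 −0.99 ± 0.15, adjusted p = 0.0219). In this comparison 0.0732% of all genes passed, 11 in number, of which 3 were members.

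Dbp and Hlf had differences of similar size in the right atrium with larger errors. Dbp was at 83.3, 207 and 287 CPM in naive and 51.3, 72.2 and 109 CPM in high TCDD libraries, which overlapped (log2 −1.38 ± 0.29, adjusted p = 0.201). Hlf was at 70.1, 106 and 162 CPM and 23.5, 50.9 and 65.6 CPM, without overlap (log2 −1.31 ± 0.28, adjusted p = 0.201). Every high TCDD library lay below every naive one for 4 of 7 members (Tef, Hlf, Ciart and Bhlhe41), against 0.413% of all genes, and 5 of 7 members were lower at an unadjusted p under 0.05, against 4.01%. Nfil3 (log2 0.48 ± 0.34) and Bhlhe40 (−0.31 ± 0.23) did not pass. The number of members that passed went from 3 to 1, Ciart, when any 1 of libraries 2, 3, 9, 10, 12, 49 or 62 was left out. It went to 0 in libraries 1 to 48 alone, where 0% of all genes passed and Ciart was at log2 −2.34 ± 0.30 (adjusted p = 0.119). Without the libraries that went against a label, Ciart was at −2.53 ± 0.29 (adjusted p = 0.0383), Tef at −1.21 ± 0.17 (0.0737), Bhlhe41 at −1.03 ± 0.19 (0.337) and Nfil3 at 1.18 ± 0.22 (0.337).

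In the left atrium the same 5 members were low under high TCDD, but no member and 0% of 15209 genes passed the adjusted threshold in edgeR. Ciart was at 4.24, 12.4 and 22.1 CPM in naive and 1.13, 2.20 and 3.22 CPM in high TCDD libraries, without overlap (log2 −2.42 ± 0.38, adjusted p = 0.0684). Hlf was at 67.4, 110 and 188 CPM and 27.0, 43.8 and 55.3 CPM, without overlap (−1.53 ± 0.22, adjusted p = 0.0684), the first gene by p-value. Such non-overlap below naive was seen for 1.3% of all genes. Tef (−1.15 ± 0.23, adjusted p = 0.0684), Dbp (−1.49 ± 0.39, 0.104) and Bhlhe41 (−0.96 ± 0.25, 0.101) overlapped with naive libraries. Dbp was at 61.2, 219 and 319 CPM in naive and 47.2, 68.7 and 99.9 CPM in high TCDD libraries, and naive libraries 17 and 52 lay within the high TCDD range. Nfil3, the repressor at the same elements, was at 1.88, 7.15 and 12.5 CPM in naive and 7.22, 13.7 and 17.0 CPM in high TCDD libraries (log2 0.90 ± 0.35, adjusted p = 0.216). At an unadjusted p under 0.05, 5 members were lower, against 10% of genes, and 1 was higher. DESeq2 put 5 members past the adjusted threshold in both atria, namely Dbp, Tef, Hlf, Ciart and Bhlhe41, beside 3.57% of all genes in the left and 0.332% in the right atrium. In edgeR the number was 3 without naive library 52, 2 without naive library 51, and 5 in libraries 1 to 48 alone, where 2.12% of all genes passed, Hlf was at −1.74 ± 0.16 (adjusted p = 0.00945) and Nfil3 at 1.56 ± 0.33 (0.0472). Here and elsewhere, counts with 1 library left out come without the share of all genes. A change in them cannot be told apart from a shift over all genes. Without the libraries that went against a label, Ciart was at −2.33 ± 0.37 and Hlf at −1.55 ± 0.25, both with an adjusted p of 0.0503.

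In the ventricles Tef and Hlf were lower in high TCDD than in naive libraries, in a comparison where 13.1% of all genes passed. Tef was at 82.9, 191 and 268 CPM in naive and 81.9, 90.6 and 145 CPM in high TCDD libraries (log2 −0.91 ± 0.25, adjusted p = 0.0323). Naive libraries 53 and 54 lay within its high TCDD range. Hlf was at 60.3, 75.2 and 113 CPM and 26.9, 42.0 and 65.9 CPM (−0.85 ± 0.19, adjusted p = 0.0162), and only high TCDD library 44 reached the naive range. Ciart was at 3.25, 7.94 and 13.5 CPM and 1.20, 4.02 and 6.14 CPM (−1.13 ± 0.46, adjusted p = 0.118). Dbp was at 60.2, 110 and 191 CPM in naive and 51.6, 95.5 and 200 CPM in high TCDD libraries (−0.23 ± 0.34, adjusted p = 0.701), and 3 of its 6 naive libraries were among those under 100 CPM. No member was free of overlap with naive, against 3.99% of all genes below, and 3 members were lower at an unadjusted p under 0.05, against 14.6% of genes. The count of 2 went to 1 when any 1 of libraries 33, 34, 35, 36, 41, 42, 43 or 66 was left out, and Hlf passed in each of the 19 alternatives run. Without the libraries that went against a label, Tef was at −0.98 ± 0.23 (adjusted p = 0.0157) and Hlf at −0.87 ± 0.21 (0.0159). In the same comparison 2 of 2 tested skeletal muscle markers fell and 1 of 4 cardiomyocyte markers rose. Over all compartments the 4 skeletal muscle markers summed to 7.49 to 23.2 CPM in naive and 3.61 to 14.1 CPM in high TCDD libraries, and their part in the result was not tested.

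**Figure D2:**
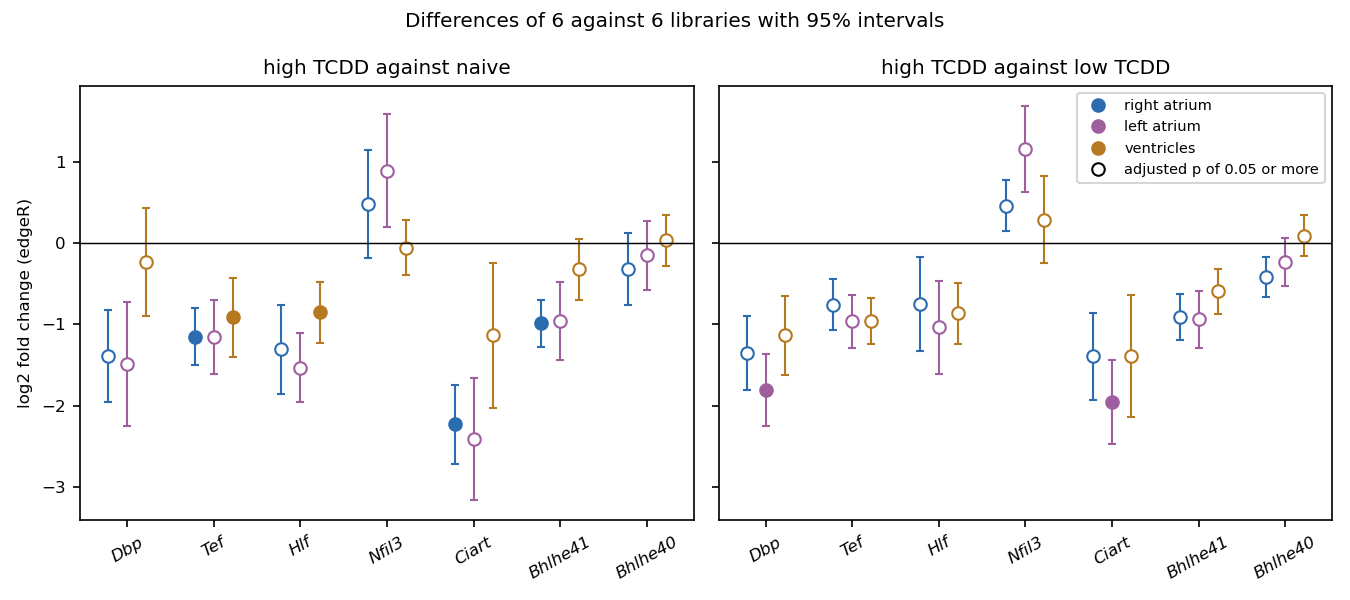
Log2 fold changes of each member (edgeR, 6 against 6 libraries, sex as a term) for high TCDD against naive and high against low TCDD, by compartment, with 95% intervals from the standard error. Filled points passed an adjusted p of 0.05. Dbp, Tef, Hlf, Ciart and Bhlhe41 lie below 0 in all 6 comparisons, and Nfil3 lies above 0 in 5 of them.

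High and low TCDD mice were also compared directly, a comparison added after the data had been seen, which uses no naive library. In the left atrium 3 of 15224 genes passed (0.0197%), namely Arntl, Dbp and Ciart. Dbp was at 129, 244 and 388 CPM in low and 47.2, 68.7 and 99.9 CPM in high TCDD libraries, without overlap, and was 3.50 times lower (log2 −1.81 ± 0.23, adjusted p = 0.0163). Ciart was at 7.07, 9.04 and 11.4 CPM against 1.13, 2.20 and 3.22 CPM (−1.96 ± 0.26, adjusted p = 0.0252). Arntl was higher, at 2.24 ± 0.24 (adjusted p = 0.00709). High TCDD libraries lay wholly below low TCDD ones for 4 members (Dbp, Tef, Ciart and Bhlhe41), against 0.0854% of genes, and 5 members were lower at an unadjusted p under 0.05, against 0.552%. Left out singly, libraries 25, 26, 27, 31 or 64 brought the count of 2 to 0 and libraries 28, 29, 30 or 32 brought it to 1, and it was 0 in libraries 1 to 48 alone, where 0% of all genes passed. Without the libraries that went against a label, Dbp was at −1.82 ± 0.22 (adjusted p = 0.0263) and Ciart at −2.16 ± 0.27 (0.0338).

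In the right atrium 0% of 14980 genes passed between high and low TCDD in edgeR, while 6 of 7 members were lower at an unadjusted p under 0.05 (3.03% of genes) and DESeq2 put 4 past the adjusted threshold (Dbp, Tef, Ciart and Bhlhe41), beside 0.141% of genes. For the left atrium it put 4 past, beside 0.0621%. Bhlhe41 (−0.91 ± 0.14) and Dbp (−1.35 ± 0.23) had an adjusted p of 0.183, and Dbp, Ciart and Bhlhe41 did not overlap, against 0.134% of genes. In the ventricles 0.00699% of genes passed, that is Arntl alone (2.51 ± 0.29, adjusted p = 0.0145). Tef came nearest among the members (−0.96 ± 0.14, adjusted p = 0.0705), ahead of Dbp (−1.14 ± 0.25, 0.733) and Hlf (−0.86 ± 0.19, 0.733), and DESeq2 put these 3 past the threshold, beside 0.0635% of genes. Without high TCDD library 44, 1 member passed in edgeR. Dbp, Tef, Hlf, Ciart and Bhlhe41 did not overlap between the doses in the ventricles, against 0.0979% of genes, and 5 members were lower at an unadjusted p under 0.05, against 0.972%. Leaving out libraries that went against a label, the difference of Dbp there was −0.62 ± 0.29 and that of Tef −0.76 ± 0.21, with an adjusted p of 1 for both.

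Low TCDD and loss of Ahr gave no member past the adjusted threshold against naive in any compartment in edgeR. Under low TCDD 12.9% of ventricular genes passed, and 0% in either atrium. Dbp had the largest low TCDD difference of the members, in the ventricles, at 200, 228 and 250 CPM against 60.2, 110 and 191 CPM in naive libraries, all 6 above every naive one (log2 0.88 ± 0.29, adjusted p = 0.0624), as were 3.23% of genes. It passed in DESeq2, beside 13.8% of genes, and in edgeR 1 member passed without naive library 34. In libraries 1 to 48 alone it was at 0.56 ± 0.31 (adjusted p = 0.22), and with the libraries against a label left out at 1.04 ± 0.54 (0.664). In the right atrium Ciart was at 5.30, 7.31 and 10.8 CPM under low TCDD (−0.85 ± 0.21, adjusted p = 0.430), between the naive and high TCDD values. At an unadjusted p under 0.05, 3 of 21 low TCDD member comparisons passed, against 17.7% over all genes. In Ahr-/- hearts 0.00655% of genes passed in the right atrium, 0.0132% in the left atrium and 0.0347% for the ventricles, and 5 of 21 member comparisons passed unadjusted, against 12.4%. Hlf in the left atrium was the nearest to the threshold of these (46.6, 63.4 and 101 CPM in Ahr-/-, log2 −0.81 ± 0.24, adjusted p = 0.239). Dbp in the ventricles of Ahr-/- mice was at 140, 191 and 236 CPM (0.65 ± 0.29, adjusted p = 0.385). DESeq2 put no member of Ahr-/- hearts past the threshold in either sex or with the sexes together.

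The study compared males and females separately, with 3 libraries against 3. Hlf in the ventricles of high TCDD females was the 1 member comparison of 126 to pass in edgeR. It was at 54.3, 65.9 and 39.4 CPM in high TCDD and 113, 94.1 and 65.3 CPM in naive libraries, which overlapped narrowly (log2 −0.79 ± 0.22, adjusted p = 0.0235), in a comparison where 23.7% of genes passed. It no longer passed without library 35, 36, 43 or 66, and 3 members passed without naive library 54. Among the other 17 comparisons, 0.0216% of genes passed in the ventricles of Ahr-/- females and 0% in the remaining 16 together. At an unadjusted p under 0.05, 24 of 42 member comparisons under high TCDD were lower (6.47% over all genes) and 2 were higher (5.83%), both of Nfil3 in male atria, at 1.05 ± 0.26 in the right and 0.96 ± 0.27 in the left. The counts were 6 of 42 in Ahr-/- (6.91%) and 3 of 42 in low TCDD mice (9.83%). DESeq2 put Tef, Hlf and Ciart past the adjusted threshold in both atria of high TCDD males, beside 0.574% of genes in the left and 0.316% in the right atrium. In high TCDD females it put Ciart past in both atria, beside 0.0738% and 0.0316% of genes, and Hlf in the ventricles, beside 19.1%. The term for a difference between the sexes passed for 0 of 63 member comparisons at an adjusted p (0% of all genes), at an unadjusted p under 0.05 (2.53%) and in DESeq2 (at most 0.0101% of genes in a comparison). As 8 of 24 libraries numbered 49 to 72 went against their labelled sex, this cannot show that the sexes were alike. Of libraries 1 to 48, 0 of 48 did so. In these alone 0 members passed for high TCDD ventricles, beside 3.6% of genes, and 0 for the Ahr-/- left atrium, beside 0.707%.

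Other clock genes were read from lists. Of 12 core clock genes, Arntl (2.93 ± 0.31, adjusted p = 0.00352) and Npas2 (1.61 ± 0.24) rose and Per2 (−1.77 ± 0.26) and Per3 (−1.75 ± 0.22) fell in the right atrium under high TCDD. In the ventricles, where 13.1% of all genes passed, Cry1 (−0.92 ± 0.27), Nr1d2 (−1.14 ± 0.24) and Rora (−0.76 ± 0.15) fell. In the left atrium none passed, with Per2 at −1.89 ± 0.35 and Arntl at 1.86 ± 0.59. Nr1d1, a repressor of Arntl, was at −0.03 ± 0.23 in the right and 0.18 ± 0.20 in the left atrium. In the ventricles its log2 CPM ran higher under high TCDD (6.34 to 7.08) than in naive libraries (5.08 to 6.57), with overlap. Under low TCDD Clock (−0.77 ± 0.19) and Npas2 (−1.11 ± 0.34) fell in the ventricles, beside 12.9% of all genes that passed. Of 10 other clock outputs, Wee1, a kinase that holds back mitosis, fell in the right atrium under high TCDD (−1.07 ± 0.15). In the ventricles Alas1, the first enzyme of haem synthesis, rose (0.85 ± 0.17) and Nampt, an enzyme of NAD synthesis, fell (−0.87 ± 0.25), again beside 13.1% of all genes. The 11 genes that passed in the right atrium were thus 3 members, 4 core clock genes, Wee1, and Slc41a3, Lonrf1 and Ankrd12, which were on none of the lists. Of 6 glucocorticoid targets Mt2, a metallothionein, rose in the ventricles under high (1.25 ± 0.29) and low TCDD (0.92 ± 0.23), beside the same 13.1% and 12.9%. None of the 7 or 8 hypoxia targets tested passed in any compartment. Of 6 immediate early genes 2 rose in the ventricles under high TCDD, where 13.1% of all genes passed. In Ahr-/- mice no core clock gene passed, and of 5 targets of the receptor Cyp1a1, its best known target, fell in the right atrium and the ventricles. Cyp1a1 was near the floor, with a median of 0.935 CPM over all libraries and 16 libraries at 0.

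**Figure D3:**
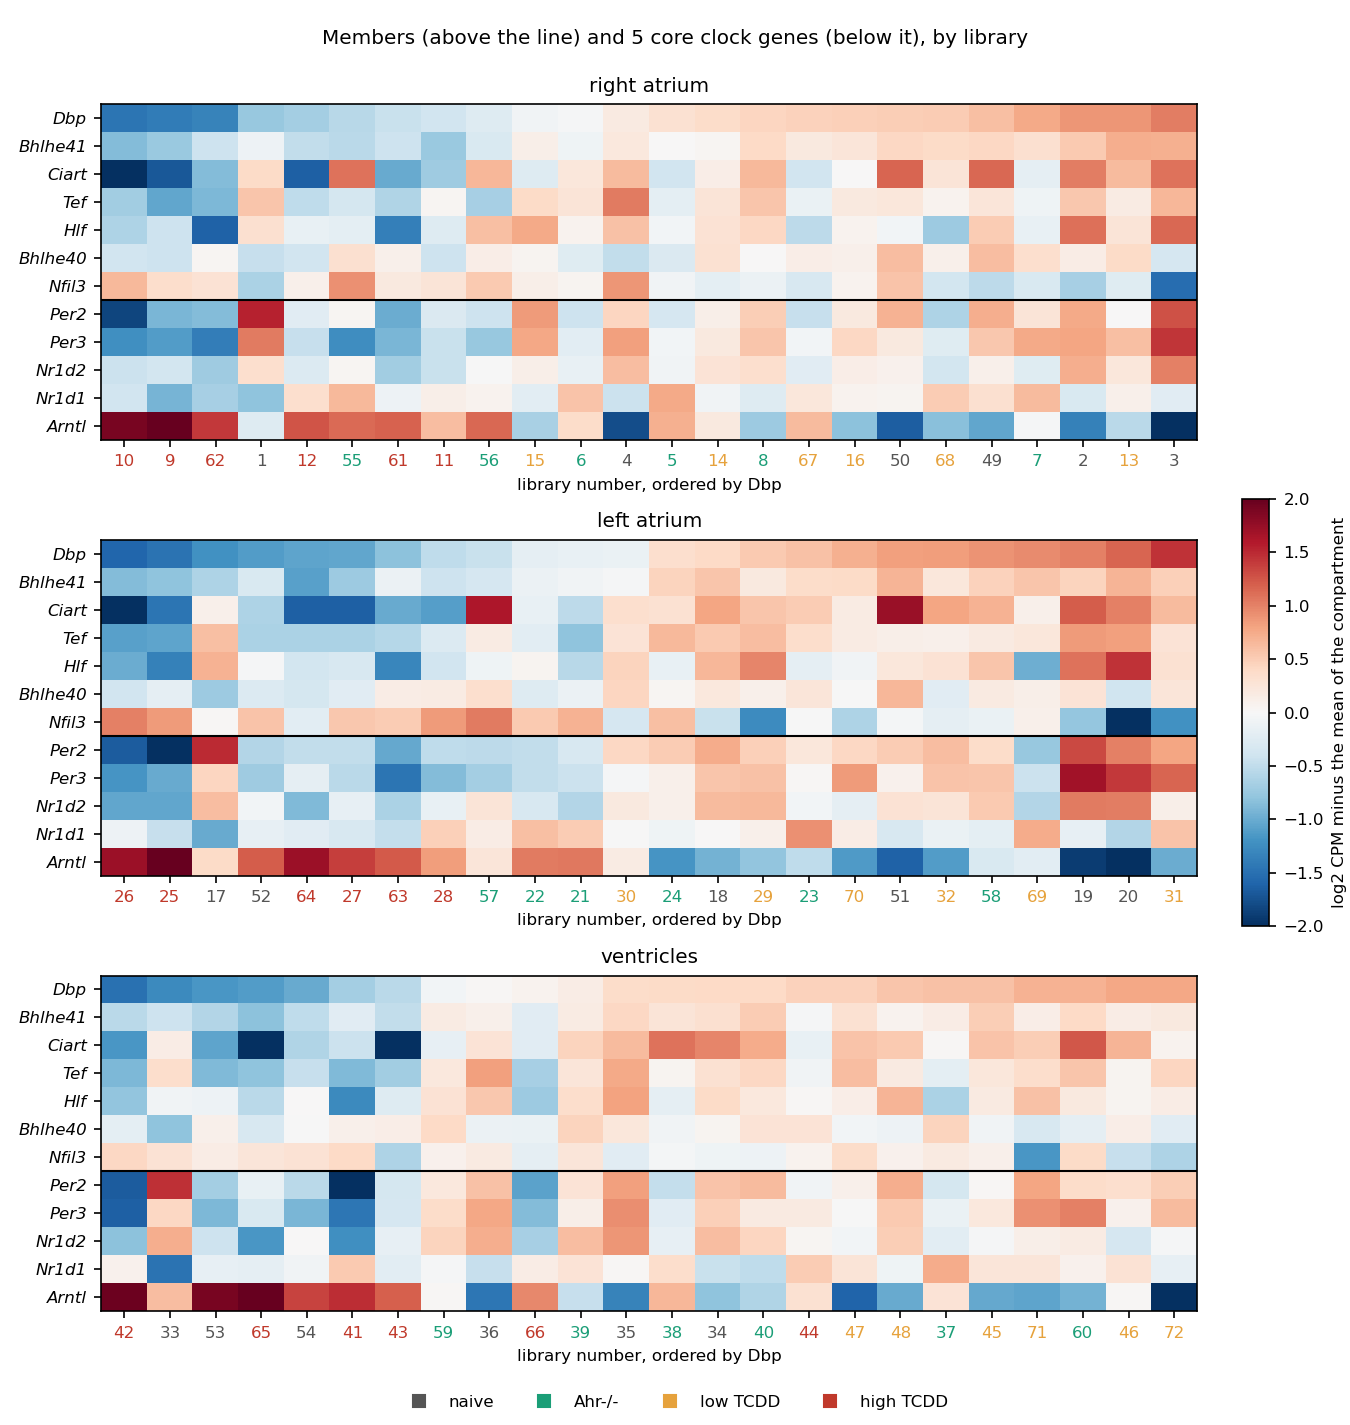
Members (above the line) and 5 core clock genes (below it) in the 24 libraries of each compartment, ordered from left to right by Dbp. Colour is log2 CPM minus the mean of the compartment, cut at 2 in either direction, and library numbers are coloured by group. In both atria the 6 high TCDD libraries (red numbers) are among the 8 lowest in Dbp. Among them are also naive library 1 and an Ahr-/- library at 96.8 CPM in the right atrium, and naive libraries 17 and 52 in the left. In the ventricles high TCDD libraries 66 and 44 lie further right, at 154 and 200 CPM of Dbp.

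Members were compared with Dbp over the 24 libraries of a compartment, which by the labels and methods came from different mice. Of libraries 49 to 72, however, 8 of 24 went against their labelled sex. Some libraries labelled as the same compartment may therefore share a mouse, which the permutation p does not allow for. Bhlhe41 followed Dbp most closely, with Pearson's r of 0.91, 0.93 and 0.87 in the right atrium, left atrium and ventricles (Spearman's rho 0.93, 0.90 and 0.68, permutation p at most 0.00029, adjusted over 18 relations at most 0.00104). Without the 2 libraries farthest from the median of Dbp, r was 0.87, 0.90 and 0.86. By the median of rho over the 3 compartments it was second among 16604 genes. Ciart had r of 0.70, 0.77 and 0.73 and Tef 0.69, 0.73 and 0.66, with an adjusted permutation p of 0.000954 or less for each r (rho 0.59, 0.76 and 0.66 for Ciart and 0.55, 0.64 and 0.51 for Tef). Without the 2 farthest libraries r was 0.54, 0.69 and 0.79 for Ciart and 0.56, 0.62 and 0.74 for Tef. Hlf was looser, at 0.56, 0.56 and 0.51 (rho 0.45, 0.54 and 0.44, and r of 0.54, 0.41 and 0.45 without the 2 farthest libraries). Nfil3 ran against Dbp, at −0.56, −0.69 and −0.42 (adjusted permutation p 0.0066, 0.000517 and 0.0386; rho −0.64, −0.69 and −0.44), and at −0.51, −0.63 and −0.33 without the 2 farthest libraries. Bhlhe40 had r of 0.48, 0.50 and 0.31, the last of which did not pass (adjusted permutation p = 0.145), and 0.35, 0.43 and 0.0075 without the 2 farthest libraries (rho 0.57, 0.45 and 0.063 over all).

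Part of these relations lay between the groups. With the mean of each group and sex taken off, Bhlhe41 still followed Dbp, at r of 0.76, 0.91 and 0.82 (adjusted permutation p at most 0.00024). Ciart was then at 0.18, 0.62 and 0.68, Tef at 0.27, 0.44 and 0.54, and Hlf at 0.10, 0.20 and 0.22. Nfil3 was at −0.52, −0.55 and −0.17 (adjusted permutation p 0.0176, 0.0152 and 0.461), so its relation did not pass in the ventricles. Bhlhe40 was at 0.25, 0.54 and 0.24. Within libraries 1 to 48 (16 per compartment) r of Bhlhe41 was 0.92, 0.95 and 0.84, and within 49 to 72 (8 per compartment) it was 0.89, 0.89 and 0.93. Ciart was at 0.83, 0.86 and 0.64 in the first and 0.50, 0.61 and 0.84 in the second series of numbers. Tef was at 0.65, 0.71 and 0.52 in the first and 0.91, 0.88 and 0.87 in the second. Hlf was at 0.66, 0.68 and 0.53 in the first and 0.56, 0.30 and 0.50 in the second, and Nfil3 at −0.56, −0.76 and −0.34 and then −0.56, −0.52 and −0.59. Bhlhe40 was at 0.64, 0.49 and 0.56 in the first and 0.54, 0.57 and −0.29 in the second. With the libraries that went against a label left out, Bhlhe41 was at 0.95, 0.94 and 0.86 and Ciart at 0.71, 0.86 and 0.62.

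**Figure D4:**
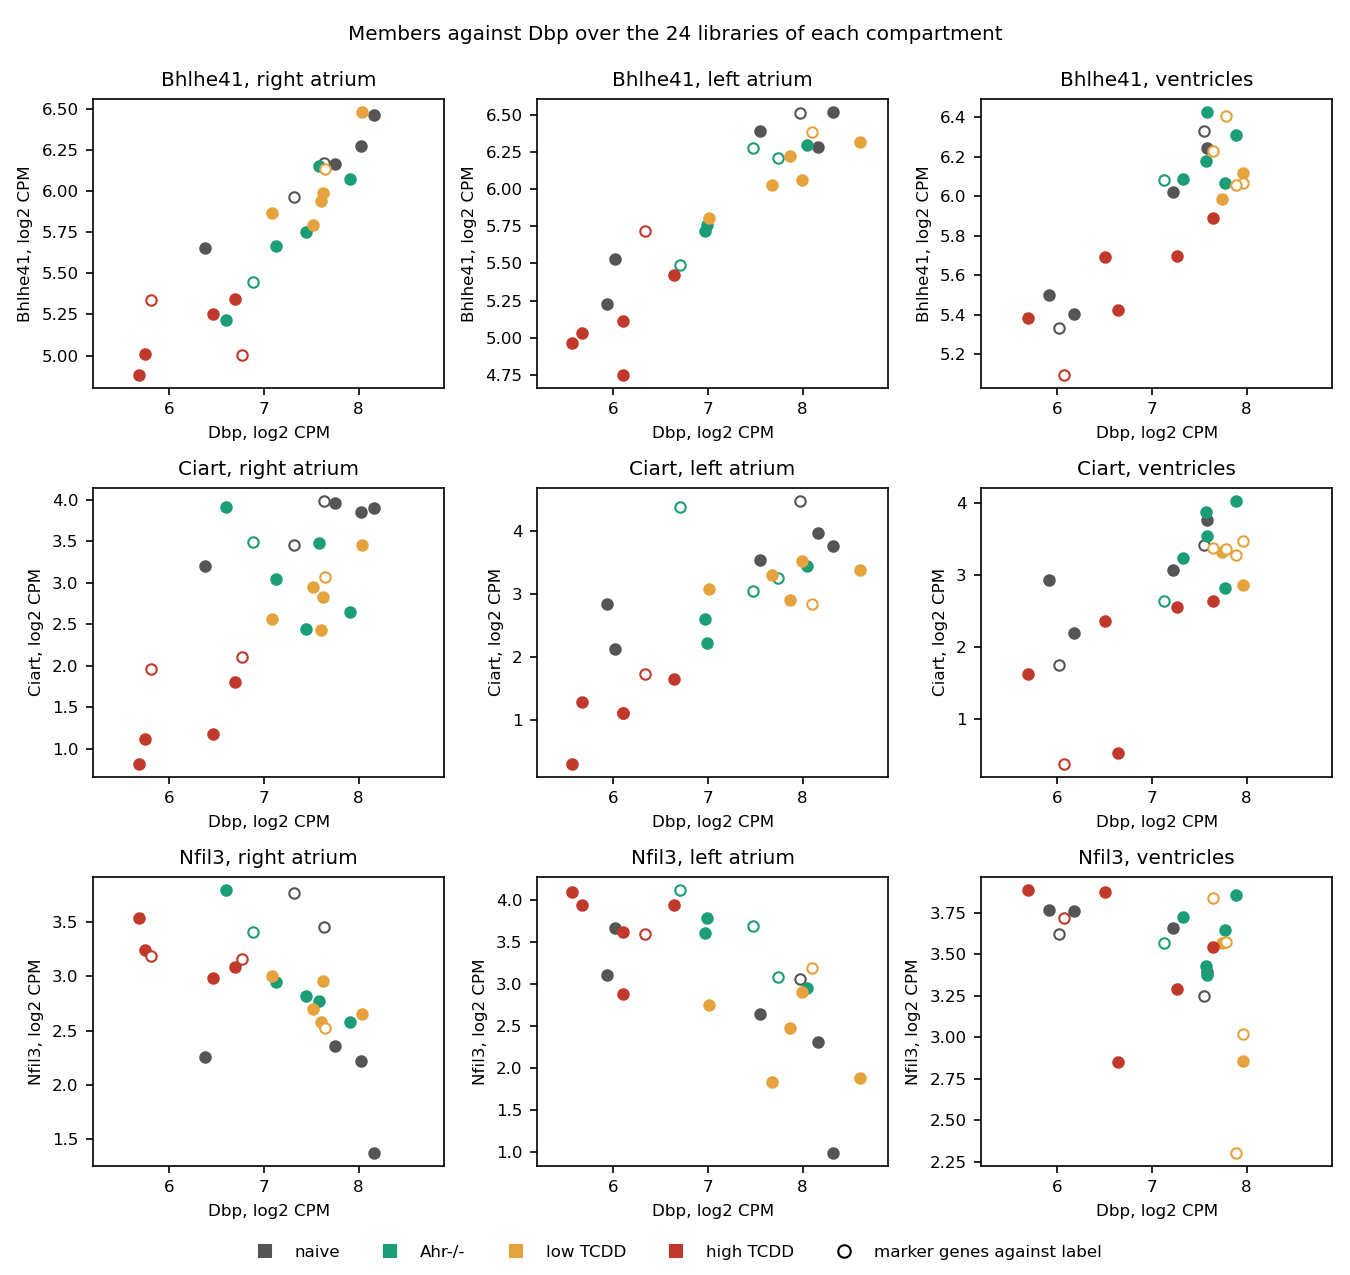
Bhlhe41, Ciart and Nfil3 against Dbp (log2 CPM on both axes), 1 point per library, 24 libraries per compartment, coloured by group, with open points for libraries whose marker genes went against a label. Bhlhe41 climbs with Dbp at r of 0.91, 0.93 and 0.87, and Nfil3 descends at −0.56, −0.69 and −0.42.

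The genes most like each member were named by the median, over the 3 compartments, of rho across 24 libraries, as a description. For Dbp they were Sphk2 (0.95), Bhlhe41 (0.90), Ccdc85b (0.71), Cry2 (0.68) and Ciart (0.66), and at the other end Clock (−0.82), Arntl (−0.78), Npas2 (−0.73), Cdkn1a (−0.65) and Nfil3 (−0.64). Dbp and Sphk2, a sphingosine kinase, lie tail to tail on chromosome 7. Their gene models overlap by 741 bases and share 0 coding bases, and per the methods reads were counted on coding regions. Whether strand was used is not given in the sources used here, so reads in the overlap, if any entered the counts, cannot be told apart. Tef was nearest to Per3 (0.85), Lonrf1 (0.83) and Per2 (0.81), and Hlf to Nr1d2 (0.88), Ppat (0.84) and Per2 (0.82). Ciart was nearest to Wee1 (0.80), Bhlhe41 (0.78) and Stk35 (0.72), and Bhlhe41 to Dbp (0.90), Sphk2 (0.90) and Ciart (0.78). Nfil3 was nearest to Fas (0.71), Acot2 (0.69) and Tmx1 (0.65). The likeness was weakest for Bhlhe40, whose nearest genes Hsph1, Col8a1 and Sez6l2 were at 0.55, 0.55 and 0.54.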

How the data were processed

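RNA from right atrium, left atrium and ventricles of 3 mice per sex and group was sequenced as poly-A libraries on a HiSeq. Per the labels and methods, reads were demultiplexed with bcl2fastq and CASAVA 1.8 and aligned with TopHat to mm10, and the authors deposited raw read counts per Entrez gene, which were used here as they stand. The annotation release and the use of strand are not given in the sources used here. The members and gene lists were chosen with earlier results of these data known.

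Genes were kept with filterByExpr (minimum count 10, minimum total 15), scaled by TMM and tested with edgeR 4.0.16 (R 4.3.3; robust quasi-likelihood F test, two-sided, Benjamini-Hochberg over all genes tested, threshold 0.05), with sex as a term where both sexes entered. The study used DESeq at 0.0001, which no member reached in edgeR. In DESeq2 13 of 294 member comparisons passed it (5 of 63 against naive with the sexes together, 3 of 126 with the sexes apart, 5 of 21 for high against low TCDD, and 0 of 63 sex terms and 0 of 21 compartment contrasts). CPM are TMM-scaled, and log2 CPM used a prior count of 2. Relations used 100000 permutations (SciPy 1.17.1), two-sided, whose smallest possible p is 1e-05. The comparison of high with low TCDD and the counts of groups that do not overlap were added after the data had been seen. Named genes were the members, list genes past 0.05 (at most 4 a list), 5 core clock genes, label checks and the genes nearest to each member, and Slc41a3, Lonrf1 and Ankrd12 were named after their values were seen. Alternatives were no filter, RLE factors, library size alone, DESeq2 1.42.0, a term for library series, libraries 1 to 48, no library against its label, all groups or all libraries in 1 fit, each library left out and, for relations, libraries 49 to 72, deviations from group means and a prior count of 0.5. Shares of all genes in DESeq2 are of genes given a p. The scripts were tested on simulated data. No pair of libraries of the same group, compartment and sex agreed within counting noise (lowest chi-square per gene 7.72). The 3 compartments share hearts that the labels do not match up. Depth was 11873417 to 28789382 counts a library, so 3 counts correspond to 0.253 to 0.104 CPM.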

Additional observations from a re-analysis of the deposited data

Results flagged for a closer look

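Of 84 sets of 6 libraries (a member in a group and compartment), 3 held a library set apart from the rest by more than Dixon's 95% critical value, and chance alone sets apart about 1 in 20. Ciart was at 7.21 CPM in low TCDD ventricle library 72, with the other 5 at 9.67 to 11.1 CPM. Tef was at 209.7 CPM in low TCDD left atrium library 29, with the others at 148.1 to 165.3 CPM, and at 144.6 CPM in high TCDD ventricle library 44, with the others at 81.9 to 95.8 CPM.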

How the results depend on the processing

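Counts past the threshold were recomputed under the alternatives other than leaving out 1 library, which gave 333 counts. Of these 298 stayed within 1.5 times the count reported, 265 of them at 0 in both. With the sexes together, DESeq2 gave 5 in the left atrium and 5 in the right atrium under high TCDD, 1 in the ventricles under low TCDD, and 4, 4 and 3 for high against low TCDD in the left atrium, right atrium and ventricles. With the sexes apart, DESeq2 gave 1 and 3 in the left atrium and 1 and 3 in the right atrium of high TCDD females and males. Libraries 1 to 48 alone gave 5 in the left atrium (beside 2.12% of all genes) and 0 in the right atrium (0%) under high TCDD, 1 in the left atrium of Ahr-/- mice (2.33%), 0 for high against low TCDD in the left atrium (0%), 2 in the left atrium of Ahr-/- females (18.4%), 3 in that of high TCDD females (0.44%), and 2 and 3 in the ventricles of high TCDD females and males (12.6% and 15.9%). Without the libraries that went against a label the counts were 1 in the right atrium under high TCDD (where 2 genes passed in all), 0 and 3 in the ventricles of high TCDD females and males (10.9% and 15.9% of all genes), and 1 for right atrium against ventricles in naive mice (17.8%). This last contrast also gave 1 with all 72 libraries in 1 fit (32.7%). A term for library series gave 1 in the ventricles under low TCDD (15.4%), 2 in those of high TCDD females (23.8%), and 1 for high against low TCDD in the left atrium (0.0129%), where library size alone also gave 1 (0.0131%). No filter gave 1 in the right atrium of high TCDD males (0.0369% of all genes), and all 4 groups in 1 fit gave 0 in the ventricles of high TCDD females (4.96%). The cause of these shifts was not tested. Leaving out 1 library gave 0 to 3 in the left atrium, 1 to 3 in the right atrium and 1 to 2 in the ventricles under high TCDD, 0 to 1 in the ventricles under low TCDD, 0 to 3 in those of high TCDD females, and 0 to 2 and 0 to 1 for high against low TCDD in the left atrium and ventricles. The share of all genes is not given beside these ranges. Relations with Dbp that passed numbered 2 in each atrium and 3 in the ventricles within libraries 49 to 72, 2 in the right atrium and 3 in the ventricles on deviations from group means, and 3 in the ventricles without the libraries that went against a label. The r of Bhlhe40 with Dbp in the ventricles changed sign, to −0.286, within libraries 49 to 72. Among single values 192 kept their side of the threshold, 79 no longer passed and 1 newly passed. No value could be had without the libraries against a label for right atrium high TCDD females, ventricle low TCDD males and the sex term of low TCDD ventricles. No paired analysis was possible because each library has a number of its own, which no group shares with another.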
